A study of Mus musculus with 6 samples.

Results

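Homeostatic microglia marker genes are transcripts that resting microglia, the resident macrophages of the central nervous system, express at high levels. The set held 9 genes, Tmem119, P2ry12, P2ry13, Cx3cr1, Sall1, Siglech, Gpr34, Olfml3 and Fcrls, taken from the table by gene symbol, with earlier results of these data known. All 9 were found among the 25755 genes of the deposited optic nerve table.

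The series asked how the optic nerve environment changes after an injury that precedes optic glioma formation. Bulk RNA was sequenced from optic nerves of 3 sham-operated mice (mice 1, 2 and 3) and of 3 mice with optic nerve crush (mice 4, 5 and 6). Every mouse, sham or crush, was NF1flox/flox;hGFAP-Cre and was 3 months of age. In this genotype, Cre driven by the human GFAP promoter inactivates both floxed Nf1 alleles in neuroglial progenitors and their descendants, so the controls also lacked Nf1 in those cells, and no wild-type nerve was analysed here. By the study's account the crush was bilateral and made at 6 weeks of age, sham mice received the incision without the crush, and nerves were taken at 12 weeks.

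Depth, estimated from the step size of the deposited values, was 1.74141e+07 to 2.3621e+07 reads per library, and all 3 crush libraries were shallower than all 3 sham libraries. The 9 genes together held 8443 to 12846 estimated reads per library. The lowest member was Fcrls in sham mouse 2, at 145 reads. The sexes were not balanced: Xist, transcribed from the inactive X chromosome of females, was at 2.14 to 30.9 in sham and 2708 to 6357 in crush libraries. The Y-linked Ddx3y was at 1291 to 1645 in sham, at 0 and 4.19 in crush mice 6 and 5, and at 976 in crush mouse 4, which held both transcripts. The label names that library as 1 mouse, and whether it held RNA of more than 1 animal was not tested. The study's methods for optic nerve RNA and PCR describe more than 1 mouse per sample, but do not say whether this held for sequencing. Each n given below therefore counts libraries. Sex and surgery therefore cannot be told apart in any comparison here. Crush mouse 5 was the crush library nearest to sham in the median of the pan-myeloid genes used below. It also stood apart in neuronal RNA: 8 retina and neuron genes summed to 2743, 1397 and 1165 in sham and to 1058, 6454 and 1563 in crush libraries.

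Microglia depend on CSF1 receptor signalling and on TGF-β, and a set of transcription factors including PU.1, IRF8, MEF2 factors and SALL1 maintains their resting programme. Many of the marker genes encode surface receptors with which microglia sense nucleotides, lipids and neuronal ligands. In injured and degenerating nervous tissue, microglia are known to lower several of these genes while they raise a programme called disease-associated, with Cst7, Lpl, Clec7a and Itgax among its genes.

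Of the 9 genes, 0 passed the test between crush and sham at an adjusted p of 0.05, where 2.10% of all genes did. The 2 with the largest differences upward were Cx3cr1, the receptor for fractalkine, at 1.68 times the sham mean, and P2ry13, a receptor for ADP, at 1.65 times. Tmem119 and P2ry12, both in common use as microglial markers, were at 0.834 and 0.771 times their sham means. In the same libraries, 13 of 20 genes shared by microglia and macrophages and 14 of 18 disease-associated genes rose, against 0.971% of all genes. Values are deposited normalized read counts, in which 1 read is worth 0.885 to 1.06, and fold changes come from limma on log2(value + 1) with Benjamini-Hochberg adjustment over all 25755 genes. In bulk RNA, fewer cells of a type and less RNA per cell cannot be told apart. By the study's account, stained optic nerves of this genotype and age held a larger share of Iba1-positive cells after crush than after sham surgery. Its in situ hybridization also showed more Tmem119-positive cells after crush. Whether the sequenced nerves held more of these cells was not tested.

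**Figure D1:**
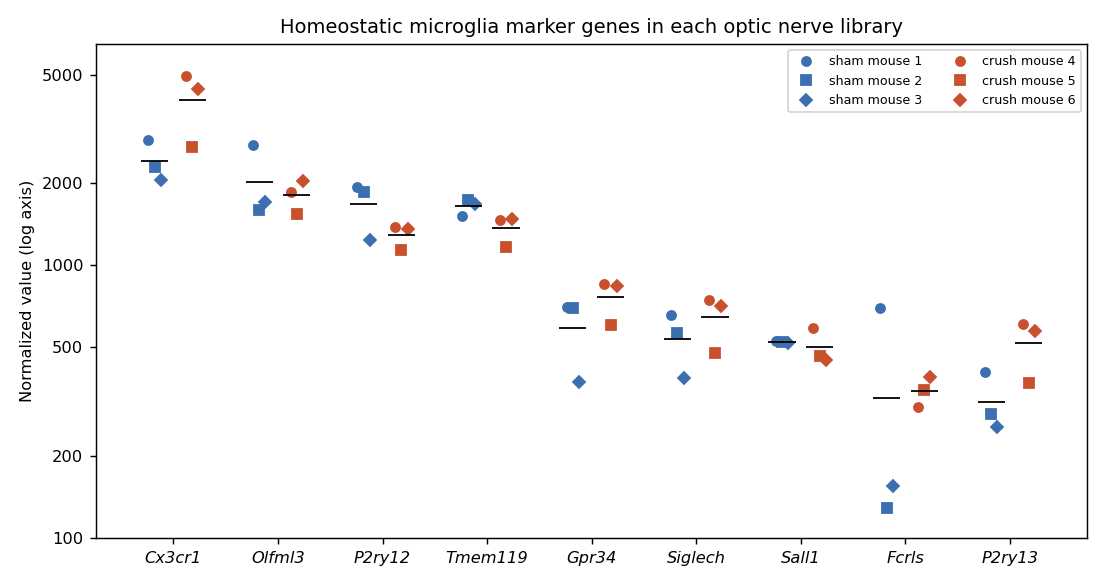
Normalized value (log axis) of the 9 marker genes in each of the 6 optic nerve libraries, with sham mice in blue, crush mice in red and the group mean as a line. Crush mouse 5 sat below the other crush mice for Cx3cr1 and P2ry13, and Fcrls in sham mouse 1 stood apart from the other sham mice.

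P2ry12 and P2ry13 are neighbouring genes for ADP receptors coupled to inhibitory G proteins, and P2ry12 directs microglial processes toward sites of injury. Both lie on the minus strand of chromosome 3 (GRCm38), P2ry13 (ENSMUSG00000036362.2) at 59207892 to 59210882 and P2ry12 (ENSMUSG00000036353.13) at 59216272 to 59262871, with 5389 bases between them. Both sit inside Med12l, a Mediator subunit gene on the other strand, with which P2ry12 shares 9 exon bases and P2ry13 shares 0. The 250 bases before the RefSeq start (GRCm38.p6, minus strand) are shown for this pair because they are neighbours whose values differed in opposite directions, and for Cx3cr1 because its values followed those of P2ry13. Capitals mark AGGAAGT, the ETS core in the form that PU.1 prefers.
P2ry12 (chr3:59262986-59263235): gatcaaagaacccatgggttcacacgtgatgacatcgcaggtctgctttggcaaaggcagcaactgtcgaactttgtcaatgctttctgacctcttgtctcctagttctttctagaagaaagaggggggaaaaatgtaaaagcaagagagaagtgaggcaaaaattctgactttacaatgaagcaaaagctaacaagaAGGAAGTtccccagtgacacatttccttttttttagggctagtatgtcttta
P2ry13 (chr3:59210883-59211132): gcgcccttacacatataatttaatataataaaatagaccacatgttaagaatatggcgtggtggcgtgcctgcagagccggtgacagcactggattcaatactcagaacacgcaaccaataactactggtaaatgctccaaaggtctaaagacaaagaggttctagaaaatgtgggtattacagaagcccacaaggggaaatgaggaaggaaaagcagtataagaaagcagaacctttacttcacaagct
Cx3cr1 (chr9:120068297-120068546): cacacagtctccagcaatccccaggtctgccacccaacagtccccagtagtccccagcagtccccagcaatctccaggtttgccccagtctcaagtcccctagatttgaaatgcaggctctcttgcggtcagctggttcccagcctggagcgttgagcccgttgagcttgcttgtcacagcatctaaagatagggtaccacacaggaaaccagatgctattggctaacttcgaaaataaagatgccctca

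The letter strings searched on both strands of these windows were AGGAAGT for the ETS core, TGTGGTT for RUNX factors and TGAGTCA for AP-1, and no string contains another. The P2ry12 window held AGGAAGT with its first base 52 bases before the start, and the P2ry13 and Cx3cr1 windows held none of the strings. Of the other members with a RefSeq window, Fcrls held AGGAAGT and TGTGGTT, Siglech held TGTGGTT, 1 of the Sall1 starts held AGGAAGT, and Olfml3 held none. Among all 32851 promoter windows of the same length, 7.69% held AGGAAGT, 4.40% held TGTGGTT and 4.46% held TGAGTCA. These matches describe letters and not binding. Windows were found for 7 of the 9 genes, all but Tmem119 and Gpr34.

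In the order of the mouse numbers, which is kept below, P2ry12 measured 1947, 1857 and 1243 in sham and 1389, 1143 and 1362 in crush libraries. The first 2 sham mice were above every crush mouse, and sham mouse 3 lay within the crush range. The means were 1682 ± 383 in sham and 1298 ± 135 in crush (SD, n = 3 each). The fitted log2 difference was -0.35 (SE 0.17, 95% interval -0.74 to 0.03), and the adjusted p was 0.364. P2ry13 measured 405, 285 and 255 in sham and 608, 371 and 575 in crush libraries. Crush mice 4 and 6 were above all sham mice, whereas crush mouse 5 lay below sham mouse 1. Its log2 fold change was 0.71 (SE 0.23, 95% interval 0.21 to 1.22), with a p of 0.0106 before and 0.159 after adjustment in limma. Without crush mouse 5, the library with the high neuronal sum, P2ry13 passed the test, at a log2 fold change of 0.94 and an adjusted p of 0.0327. With other single mice left out the adjusted p in limma reached 0.440, and with no mean-variance trend it was 0.376.

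Cx3cr1 (ENSMUSG00000052336.7, chr9:119901616-120069879, minus strand) encodes the receptor for fractalkine, a chemokine that neurons display on their surface. It measured 2885, 2294 and 2052 in sham and 4979, 2731 and 4434 in crush libraries. The order was the same as for P2ry13, with crush mice 4 and 6 above all sham mice and crush mouse 5 below sham mouse 1. The means were 2410 ± 429 and 4048 ± 1173 (SD, n = 3 each). On the log2 scale Cx3cr1 differed by 0.72 (SE 0.21, 95% interval 0.24 to 1.19). The p in limma was 0.00706 before and 0.128 after adjustment. Leaving out crush mouse 5 gave a log2 fold change of 0.98 with an adjusted p of 0.00745, and weighting the libraries by their fit gave 0.83 with an adjusted p of 0.0447. With other single mice left out the adjusted p in limma reached 0.407, and with no mean-variance trend it was 0.375. A noncoding gene, Gm33858, shares 1.73% of the Cx3cr1 exon bases, and whether strand was used in counting is not given in the sources used here. Monocytes and some lymphocytes also express Cx3cr1. The summed level of 11 T and natural killer cell genes ranged from 265 to 711 in sham and from 239 to 1658 in crush libraries, and that of 11 monocyte genes from 9623 to 11237 and from 7400 to 11583. Fn1 and Lyz2 made up most of the monocyte sum, 8 of the 11 genes had positive fold changes, and crush mouse 6 held the highest Ly6c2, 385, and Plac8, 262, of all libraries. The part of these cell types in the Cx3cr1 difference was not tested.

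Gpr34 (ENSMUSG00000040229.11, chrX:13632089-13640858, plus strand) encodes a receptor for lysophosphatidylserine and lies inside Cask, a gene on the other strand with which it shares 0 exon bases. It measured 701, 696 and 374 in sham and 854, 603 and 841 in crush libraries. Crush mice 4 and 6 were again the highest, and crush mouse 5 lay within the sham range. The log2 fold change was 0.42 (SE 0.24, 95% interval -0.13 to 0.96), with an adjusted p of 0.455. Gpr34 is X-linked, and the groups differed in Xist and Ddx3y as given above.

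Siglech (ENSMUSG00000051504.18, chr7:55768178-55778925, plus strand) encodes a sialic acid-binding lectin that signals through the adaptor DAP12 and is also known from plasmacytoid dendritic cells. It measured 658, 564 and 387 in sham and 750, 477 and 710 in crush libraries, so that the groups overlapped. The log2 fold change was 0.27 (SE 0.22, 95% interval -0.23 to 0.77), with an adjusted p of 0.612. Of 9 plasmacytoid dendritic cell genes, 0 passed the test. Their summed level was 9197 to 9808 in sham and 9331 to 11376 in crush libraries, most of it from Tcf4. Without overlap, 1 of the 9 was higher in crush and 1 lower, against 10.5% and 11.0% of all genes. The higher one, Spib, was at 0 to 0.939 in sham and 0.997 to 23.9 in crush libraries. The lower one, Klk1, was at 2.12 to 18.8 in sham and 1.05 to 2.08 in crush libraries. Spib was at no more than 1 read in sham mice and in crush mouse 4. Its highest value was in crush mouse 6, which also held the highest sum of B and plasma cell genes, given below. The source of the Spib values was not tested. At an unadjusted p under 0.05 in limma, 2 of the 9 were higher and 0 lower, against 7.37% and 8.22% of all genes. These were Cox6a2, with a log2 fold change of 1.73 (adjusted p 0.121), and Bst2, with 0.78 (adjusted p 0.193). In both, the groups overlapped. Without crush mouse 5, 2 genes of the list were called higher.

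Fcrls (ENSMUSG00000015852.13, chr3:87250758-87263738, minus strand) encodes an Fc receptor-like scavenger receptor of mouse microglia. It measured 699, 128 and 155 in sham and 303, 348 and 388 in crush libraries. Sham mouse 1 was the highest of all 6 libraries, whereas the other sham mice were below every crush mouse. The means were 328 ± 322 and 347 ± 42.6 (SD, n = 3 each). The difference on the log2 scale was 0.52 (SE 0.51, 95% interval -0.61 to 1.65) with an adjusted p of 0.683. Without sham mouse 1 the log2 fold change was 1.28 and the adjusted p was 0.0294 in limma, so the outcome for Fcrls rested on 1 library. Sham mouse 1 also held the highest summed level of the 7 neutrophil genes found, 392. That sum was 88.5 and 106 in the other sham mice and 197 to 328 in crush mice. A link between the neutrophil genes and Fcrls was not tested.

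Tmem119 (ENSMUSG00000054675.5, chr5:113793729-113800516, minus strand) encodes a membrane protein that, among brain cells, marks microglia. It measured 1523, 1745 and 1675 in sham and 1469, 1169 and 1487 in crush libraries. All 3 crush mice were below all 3 sham mice, and Tmem119 was the only member whose groups did not overlap. The means were 1648 ± 114 and 1375 ± 179 (SD, n = 3 each), with a log2 fold change of -0.27 (SE 0.13, 95% interval -0.55 to 0.02) and an adjusted p of 0.351. The exact two-sided permutation test gave p = 0.1, the smallest that 3 against 3 mice allow. Over all genes, 21.6% did not overlap, 10.5% higher and 11.0% lower in crush, so 1 of 9 is close to the share that was lower.

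Sall1 (ENSMUSG00000031665.7, chr8:89027235-89044162, minus strand) encodes a zinc-finger repressor that maintains microglial identity. It measured 528, 522 and 519 in sham and 589, 467 and 450 in crush libraries. The sham mice were almost equal and the crush mice lay on both sides of them. The log2 fold change was -0.07 (SE 0.14, 95% interval -0.39 to 0.24) with an adjusted p of 0.860, and the sign turned under 2 of the alternatives. Olfml3 (ENSMUSG00000027848.12, chr3:103722222-103738001, minus strand) encodes a secreted matrix protein of the olfactomedin family. It measured 2766, 1600 and 1714 in sham and 1867, 1543 and 2036 in crush libraries, with sham mouse 1 again highest. The log2 fold change was -0.12 (SE 0.20, 95% interval -0.57 to 0.32), with an adjusted p of 0.821. Its sign turned without sham mouse 1, to 0.12, and with scaling to the total value. Fibroblast, meningeal and mural cells also express Olfml3, and their part in its values was not tested.

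By limma, 0 of 9 members passed an adjusted p of 0.05, against 2.10% of all genes, 0.971% higher and 1.13% lower. At an unadjusted p under 0.05 there were 2 of 9, Cx3cr1 and P2ry13, both higher, against 15.6% of all genes, 7.37% higher and 8.22% lower. The median log2 fold change of the members was 0.27, and 5 of 9 were positive. Over all genes the median was 0.03. The 95% intervals of P2ry12, Tmem119, Sall1 and Olfml3 reached no higher than 0.32. Those of Cx3cr1 and P2ry13 lay above 0, and Fcrls had the widest interval of the 9.

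**Figure D2:**
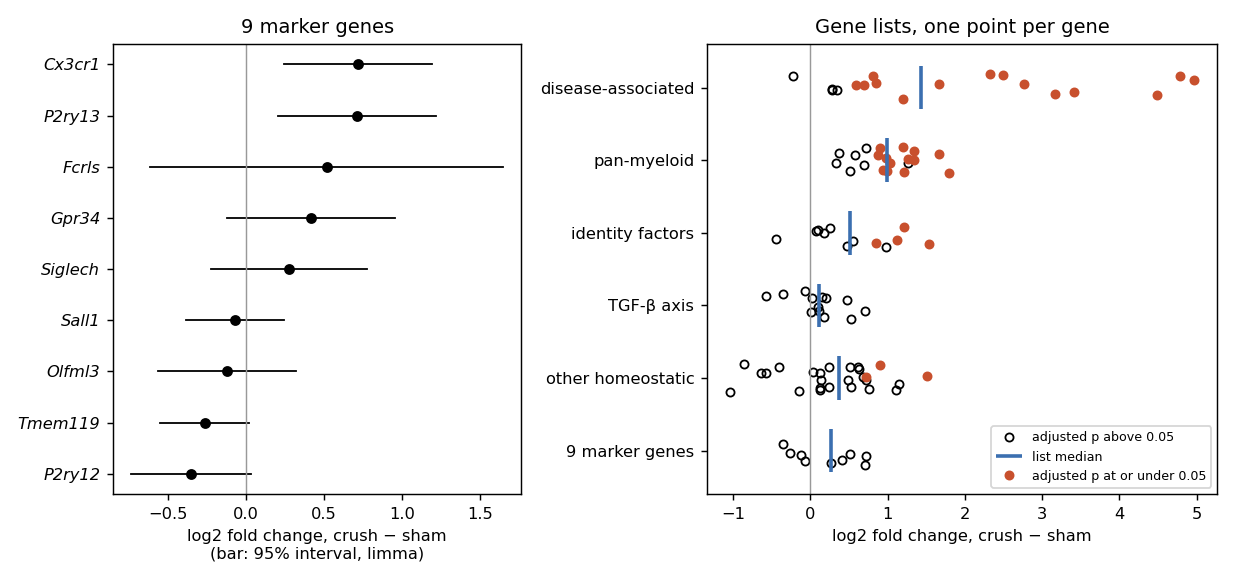
Left, log2 fold change of each marker gene, crush minus sham, with its 95% interval from limma. Right, log2 fold changes of the genes in 6 lists, 1 point per gene, filled where the adjusted p was at or under 0.05, with the list median as a bar; 0 of the 9 marker genes were filled, against 13 of 20 pan-myeloid and 14 of 18 disease-associated genes.

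Levels between genes were compared per kilobase of annotated exon (GENCODE M21), joined over all annotated transcripts of a gene. The order between genes thus depends on the annotation, and which transcripts were expressed was not tested. In sham nerves the mean order per kilobase was Tmem119 at 712, P2ry12 at 661, Cx3cr1 at 535, Olfml3 at 329, Gpr34 at 282, Siglech at 159, Fcrls at 140, P2ry13 at 125 and Sall1 at 99.4. Neighbours in that order overlapped in their range over mice, except that Cx3cr1 was above Olfml3 and P2ry13 above Sall1. In crush nerves the order was Cx3cr1 at 899, Tmem119 at 594, P2ry12 at 510, Gpr34 at 367, Olfml3 at 295, P2ry13 at 205, Siglech at 191, Fcrls at 148 and Sall1 at 95.3. Here P2ry12 was apart from Gpr34, Olfml3 from P2ry13 and Fcrls from Sall1, and all other neighbours overlapped. Cx3cr1 moved from the third place to the first and P2ry13 from the eighth to the sixth, while Sall1 was last in both groups. Tmem119 made up 24.0% ± 5.38 of the summed level per kilobase in sham and 18.1% ± 1.06 in crush nerves (SD, n = 3 each).

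Because a ratio of 2 genes within 1 library does not depend on its scaling, the members were also set against each other. Of the 36 ratios, 13 did not overlap between groups, and 8 of the 9 genes took part in at least 1 of them. Over all pairs among the 7553 genes at or above a mean value of 337, the lowest member mean, 32.9% did not overlap, so a count of 13 of 36 is near what any such genes showed. P2ry12 over P2ry13 was 4.80, 6.51 and 4.89 in sham and 2.28, 3.08 and 2.37 in crush libraries. P2ry12 over Cx3cr1 was 0.675, 0.809 and 0.606 in sham and 0.279, 0.418 and 0.307 in crush libraries. In both ratios every crush mouse lay below every sham mouse, and crush mouse 5 lay closest to sham. Tmem119 over Cx3cr1 was 0.528, 0.761 and 0.816 in sham and 0.295, 0.428 and 0.335 in crush libraries. P2ry12 over Siglech was 2.96, 3.29 and 3.21 in sham and 1.85, 2.40 and 1.92 in crush libraries. Cx3cr1 over Sall1 was higher in crush, at 5.46, 4.39 and 3.95 in sham and 8.45, 5.85 and 9.86 in crush libraries. Each of these 5 ratios, chosen after the values were seen, had an exact permutation p of 0.1, the smallest possible. No ratio of Fcrls to another member separated the groups.

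**Figure D3:**
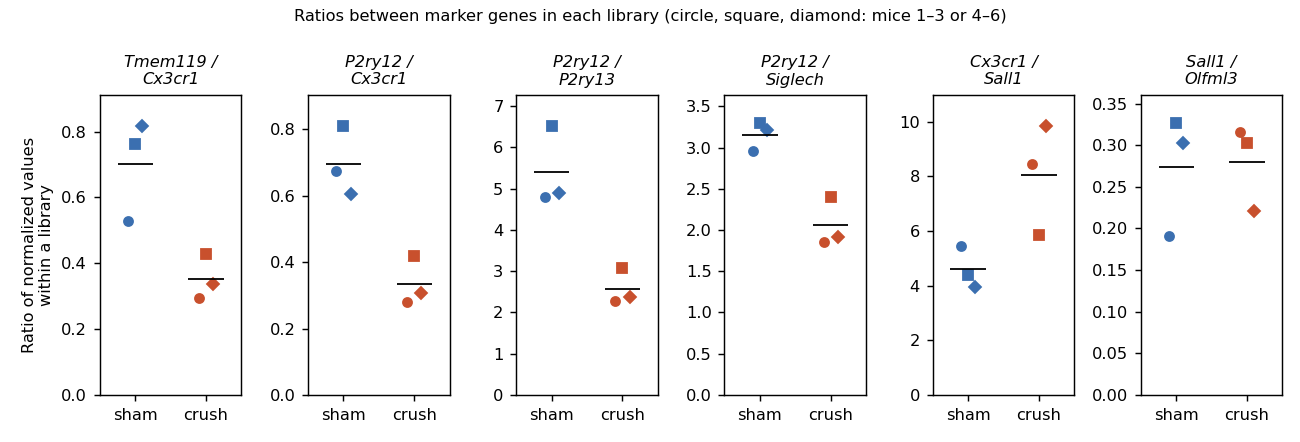
Ratio of normalized values of 2 marker genes within each library, sham in blue and crush in red, with the group mean as a line and each axis starting at 0. The first 5 ratios did not overlap between groups, with P2ry12 over P2ry13 at 4.80 to 6.51 in sham and 2.28 to 3.08 in crush, whereas Sall1 over Olfml3 overlapped.

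The members were next set against 20 pan-myeloid genes, which microglia and macrophages share. The median log2 value of those genes was 10.08, 9.95 and 10.04 in sham and 11.05, 10.51 and 11.29 in crush libraries, a difference of 0.93 (exact permutation p = 0.1). Relative to that median, P2ry12 differed by -1.28, Tmem119 by -1.19, Olfml3 by -1.05, Sall1 by -0.998 and Siglech by -0.65 on the log2 scale, each lower in crush without overlap. Gpr34 differed by -0.51, Fcrls by -0.41, and Cx3cr1 and P2ry13 by -0.21 each, with overlap. Thus 5 of 9 members were lower without overlap, but so were 53.3% of all genes, with 0.819% higher, and the count says nothing particular to the members. The reference also mattered. Relative to Csf1r alone, the CSF1 receptor gene and itself not past the test (log2 fold change 0.33, adjusted p 0.402), the median member differed by -0.06 in place of -0.65, 3 members were lower without overlap, and Cx3cr1 and P2ry13 differed by 0.39 and 0.38.

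Of 26 other genes described as enriched in resting microglia, 3 rose and 0 fell, against 0.971% and 1.13% of all genes. Their median log2 fold change was 0.37. Hpgds, a prostaglandin D synthase, measured 209, 186 and 232 in sham and 629, 476 and 697 in crush libraries, at a log2 fold change of 1.51 (adjusted p 0.0030). P2ry6, the receptor for UDP that drives phagocytosis, rose by 0.90 on the log2 scale (adjusted p 0.0497), and Rgs10, a regulator of G protein signalling, had 0.72 (adjusted p 0.0485). Those 2 adjusted p values lay just under the threshold, and between 1 and 10 genes of the list were called when single mice were left out, 10 of them without crush mouse 5. With no mean-variance trend, 0 were called. Not past the test were Crybb1, a crystallin, at -1.04 (adjusted p 0.117) and Bin1, a membrane-shaping protein, at -0.64 (adjusted p 0.0906). In all, 20 of the 26 fold changes were positive, 8 genes were higher and 3 lower in crush without overlap, and 12 were higher and 3 lower at an unadjusted p under 0.05 in limma. Over all genes, 13608 of 25755 were positive, and 10.5% were higher and 11.0% lower without overlap. At the same unadjusted p, 7.37% of all genes were higher and 8.22% lower.

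Of 13 genes of the TGF-β route, by which ligand, activating integrins and SMAD proteins maintain the microglial programme, 0 passed the test in limma, and their median log2 fold change was 0.11. At an adjusted p of 0.0547, Tgfb3 measured 1325, 1167 and 1174 in sham and 912, 715 and 842 in crush libraries, without overlap. Tgfbr1, a TGF-β receptor, differed by 0.53 on the log2 scale (adjusted p 0.085) and Tgfb2 0.47 (adjusted p 0.0826). Nrros, which holds latent TGF-β at the microglial surface, had -0.07 (adjusted p 0.914). The count in this list was 1 higher and 1 lower with library weights, 2 higher with total-value scaling, 1 higher without crush mouse 5, 1 lower in a robust fit and 1 lower after the filter on low values.

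Of 12 transcription factors of microglial identity, 4 rose and 0 fell, against 0.971% and 1.13% of all genes. Irf8, needed for microglial development, measured 404, 351 and 396 in sham and 1384, 744 and 1332 in crush libraries, at a log2 fold change of 1.53 (adjusted p 0.00733). Egr1, an activity-induced factor, had 1.21 (adjusted p 0.0426), and Sall3, a relative of Sall1 that shares a few of its transcript's 31-base words, had 0.85 (adjusted p 0.0355). Spi1, which encodes PU.1, measured 76.4, 158 and 88.3 in sham and 175, 39.8 and 59.2 in crush libraries, with a log2 fold change of -0.45 (adjusted p 0.718). Mef2c had 0.56 (adjusted p 0.121). The count of 4 went to 0 without crush mouse 6, without sham mouse 2, or with no mean-variance trend, to 1 without sham mouse 1, and to 2 without crush mouse 4.

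Among 16 ligands and partners of the members, 1 rose, against 0.971% of all genes. This was Tyrobp, which encodes the adaptor DAP12 that Siglech signals through, at a log2 fold change of 1.26 (adjusted p 0.00636); it belongs to the pan-myeloid list too. The count of 1 went to 0 without sham mouse 2, without crush mouse 6 or with no mean-variance trend. It was 1 higher and 1 lower without crush mouse 4, and 2 higher without crush mouse 5. Cx3cl1, which encodes fractalkine, measured 921, 754 and 752 in sham and 589, 948 and 695 in crush libraries, with a log2 fold change of -0.14 (adjusted p 0.759). Its highest value was in crush mouse 5, which also held the highest sum of neuronal genes, and the part of neuronal RNA in that value was not tested. Kcnk13, the potassium channel THIK-1 that P2ry12 acts on, had -0.86 (adjusted p 0.110) and was lower in all 3 crush mice. Il34, a neuronal ligand of the CSF1 receptor, had 0.47 (adjusted p 0.145), and Entpd1, the ectonucleotidase that breaks ATP and ADP down, had 0.63 (adjusted p 0.253). Of the 8 other purinergic receptor genes found, P2ry6 was the only one past the test, and P2ry14, also inside Med12l, had 0.11 (adjusted p 0.844).

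For scale, the disease-associated list had a median log2 fold change of 1.43 and the pan-myeloid list 0.99, against 0.27 for the 9 members. Cst7, which encodes cystatin F, had the largest change of the former at 4.97 (adjusted p 1.4e-04), and Apoe, which astrocytes also express, did not pass, at -0.23 (adjusted p 0.587). Of the pan-myeloid genes, Cd68, a lysosomal protein, had 1.80 (adjusted p 0.0013), Plek 1.67 (adjusted p 0.0060) and Aif1, which encodes Iba1, 1.22 (adjusted p 0.026). When single mice were left out, 8 to 14 disease-associated genes were called. The pan-myeloid count was 1 without crush mouse 6 and 1 without sham mouse 2, 4 without sham mouse 1 or 3, 6 without crush mouse 4 and 18 without crush mouse 5. With no mean-variance trend it was 0, and 3 disease-associated genes remained called. The differences between these lists and the members were not tested.

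**Figure D4:**
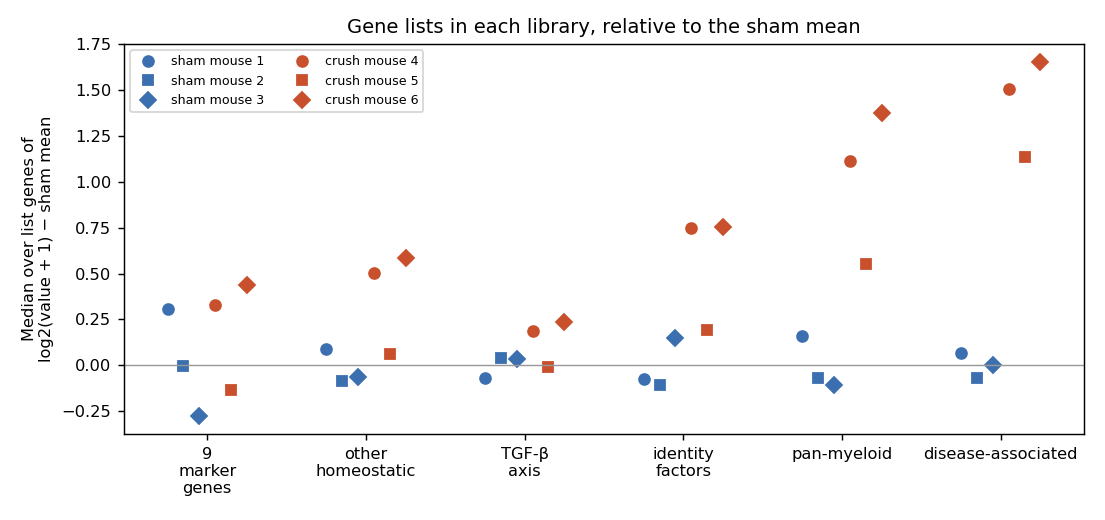
Median over the genes of each list of log2(value + 1) minus the sham mean, for each library. The 9 marker genes lay at -0.28 to 0.31 in sham and -0.13 to 0.44 in crush mice, whereas the pan-myeloid list lay at -0.11 to 0.16 and 0.55 to 1.38.

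Genes of other cell types were measured beside the members. Of 10 border macrophage genes 0 passed the test in limma, and their summed level was 2327 to 2850 in sham and 2123 to 2773 in crush libraries. Of 11 monocyte genes 1 rose, against 0.971% of all genes. This was S100a4, a calcium-binding protein of many migrating cells. The 8 B and plasma cell genes summed to 736 to 2430 in sham and 394 to 98667 in crush libraries, with the high value in crush mouse 6. The summed level of 8 oligodendrocyte genes was 1224380 to 1768530 in sham and 592765 to 697547 in crush libraries. Of the 8, 6 fell, against 1.13% of all genes. That count was 0 without sham mouse 2, without crush mouse 6 or with no mean-variance trend, and 2 without sham mouse 1. Their part in the member values was not tested, and the ratios within a library given above do not depend on a library's scaling. In limma, 0 of 6 astrocyte, 0 of 10 fibroblast and mural, and 0 of 8 retina and neuron genes passed the test. At an unadjusted p under 0.05 in limma, 3 astrocyte genes were higher and 0 lower. For fibroblast and mural genes it was 0 higher and 5 lower, against 7.37% and 8.22% of all genes. Their summed level was 25620 to 30532 in sham and 16683 to 25095 in crush libraries, without overlap.

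The genes whose pattern over the 6 libraries was most like the mean of the members were Tnip2 (Pearson r 0.987), Masp1 (0.986), Dgka (0.981), Dbt (0.971) and Ugdh (0.971), of 14427 genes with a mean value of at least 50. That mean was high in sham mouse 1 and crush mice 4 and 6 and low in sham mouse 3, so it followed single mice and not the groups. The 6 libraries are shared by all these genes, and the correlations are a description.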

How the data were processed

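Optic nerve RNA of 6 mice, 3 sham and 3 crush, had been made into libraries with the SMARTer Ultra Low RNA kit. Per the study's methods, reads were aligned and quantified by DRAGEN 3.9.3-8 against Ensembl release 101, assigned to mm10 gene models of Ensembl release 102, and median-normalized in Partek Flow 10.0; the authors then used DESeq2. The deposited values are thus a normalized signal per gene and library. Dividing each by its library's smallest step gave whole reads (within 0.01) for 64.3% to 66.6% of nonzero values, so no count model was run. Of the deposited columns, 0 could not be matched to a sample. The members and all gene lists were chosen with earlier results of these data known.

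Groups were compared with limma 3.58.1 in R 4.3.3, on log2(value + 1) with a mean-variance trend, all 25755 genes and no filter or covariate. The adjusted p (Benjamini-Hochberg) threshold was 0.05. The fit was also run on simulated whole counts, which the deposited values are not. Every simulated gene had the same dispersion, and no simulated library was made to stand apart. Single ratios were compared by an exact two-sided permutation test (scipy 1.17.1). Named were all 9 members, list genes past the threshold, list genes with a role toward a member, and the 5 most alike genes; some list genes that meet this rule are not reported here. Crybb1, Bin1, Tgfb2, Mef2c, Spib, Klk1, Cox6a2 and Bst2 were named after their values were seen. Promoter windows came from RefSeq (GRCm38.p6) and gene positions from GENCODE M21 (GRCm38). Alternatives covered the pseudocount, a filter (value of at least 10 in at least 3 libraries), 3 scalings, a robust fit, library weights, no trend, the reference for relative levels, and leaving out each mouse. The labels name separate mice as replicates, and whether a library pooled more than 1 mouse is not given for sequencing. The deposited table gives no counting error.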

Additional observations from a re-analysis of the deposited data

How the results depend on the processing

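The number of marker genes called was 0 under all alternatives except library weights, where it was 1 (Cx3cr1), and leaving out single mice, where it ranged from 0 to 2 (1 without sham mouse 1, 2 without crush mouse 5). Their median log2 fold change was 0.27 to 0.40 under the other settings and 0.06 to 0.48 with single mice left out. Sall1 turned to 0.057 with total-value scaling and to 0.0026 without crush mouse 6 (-0.19 to 0.0026 with single mice left out); Olfml3 turned to 0.0047 with total-value scaling and to 0.12 without sham mouse 1 (-0.27 to 0.12 with single mice left out). Total-value scaling moved the median of all genes by 0.12 (log2). The other 7 members kept their sign under every alternative run: Cx3cr1 stayed at 0.54 to 0.98 and P2ry12 at -0.56 to -0.22. The genes called in all lists, 41, were 3 with no mean-variance trend and 10 to 57 with single mice left out. All genes called, 540, were 7 with no trend and 67 to 854 with single mice left out, 67 without crush mouse 6; the cause was not tested. The median member relative to the pan-myeloid genes, -0.65, was -0.056 relative to Csf1r alone and -0.88 to -0.52 with single mice left out. No paired analysis was run because the labels give no pairing between sham and crush mice. With 3 mice a group, the 95% intervals of P2ry13, Gpr34, Siglech and Fcrls span about 1 log2 unit or more, and sex was confounded with surgery.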
